A study of Homo sapiens with 4 samples.

Results

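The nuclear genes of oxidative phosphorylation (OXPHOS) were taken as the protein-coding genes whose symbol begins with NDUF, COX and a digit, UQCR, ATP5, or SDH followed by A, B, C or D. In the 2 peak lists of an NSUN2 RIP-seq experiment, 68 such genes had at least 1 peak, of 17829 genes with a peak in all and of 12692 protein-coding ones. In RIP-seq a protein is immunoprecipitated and the RNA bound to it is sequenced. The protein was NSUN2, an RNA methyltransferase that makes 5-methylcytosine (m5C). The cells were wild-type PANC-1, an established line from a human pancreatic ductal adenocarcinoma. They were given sodium lactate at 30 mM or ddH2O, its vehicle, for 24 h. For each of the 2 treatments there was 1 immunoprecipitation (IP) library and 1 input library, made from the lysate before the pull-down. An effect of lactate and an effect of the added sodium cannot be told apart in this design, and a library from a control antibody was not analysed here. With 1 library per group, no value below has a replicate error, and no test between treatments was possible.

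OXPHOS moves electrons from NADH and succinate to oxygen in the inner mitochondrial membrane and uses the proton gradient so made to form ATP. Complex I (NADH dehydrogenase, NDUF genes), complex II (succinate dehydrogenase, SDH genes), complex III (cytochrome bc1, UQCR genes) and complex IV (cytochrome c oxidase, COX genes) carry the electrons, and complex V (ATP synthase, ATP5 genes) makes ATP. Most subunits are encoded in the nucleus and imported, while a small core of complexes I, III, IV and V is encoded in mitochondrial DNA. Several of the nuclear symbols in the rule (NDUFAF, SDHAF and some COX genes) belong to assembly factors that build the complexes and are not part of the finished enzyme.

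Peaks are stretches in which the IP library exceeded its input by the authors' peak caller, and fold enrichment is the ratio of IP over input at a peak. The lactate list held 48104 peaks and the ddH2O list 95785 peaks. The authors merged both lists into 116484 merged peaks and gave each a normalized read density per IP library over a window of 2000 bases. From these densities the reads per window were computed back. All windows have the same length, so their reads can be set side by side between genes, although the exonic part of a window differs between genes. Without MT-RNR2 and MALAT1, the windows summed to 1945000 lactate reads and 3536821 ddH2O reads, a 1.82-fold difference in sums. Of the keratins that mark ductal epithelium, KRT8 had 1592 lactate and 4024 ddH2O reads in its most-read window, KRT18 had 2737 and 8085, KRT19 had 92 and 248, and KRT7 had 16 and 37. Markers of other cell types gave no listed peak in 7 of 8 cases, and the exception, PTPRC, had 0 lactate and 3 ddH2O reads.

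The OXPHOS genes were listed more often with ddH2O. A peak was found for 48 OXPHOS genes in the lactate IP, with 112 peaks, and for 65 genes in the ddH2O IP, with 193 peaks. Of the 68 genes, 45 (66.2%) were in both lists, against 72.7% of all protein-coding genes with a peak. Another 20 genes (29.4%) were in the ddH2O list alone, against a background of 22.9%. The remaining 3 genes (4.41%), ATP5IF1, COX20 and NDUFA4, were in the lactate list alone, against 4.36%. The shares were thus near those of other genes.

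Of all OXPHOS genes in RefSeq, 43.6% had a peak with lactate and 59.1% with ddH2O, against 47.1% and 58.4% of nuclear protein-coding genes. The counts by complex are small, were not tested against each other, and stand beside gene spans that differ. The 4 genes of the succinate dehydrogenase subunits, SDHA, SDHB, SDHC and SDHD, all had peaks in both IP libraries, as did the 5 genes of the F1 part of ATP synthase, its catalytic head and central stalk, ATP5F1A to ATP5F1E. The median span was 42068 bases for the former and 7810 bases for the latter. The 7 core subunits of complex I all had a peak with ddH2O, and 5 of them with lactate. Of the 30 accessory subunits of complex I, 16 had a peak with ddH2O and 10 with lactate. Of the 18 genes of complex IV subunits, 5 had a peak with ddH2O and 4 with lactate, and those without any included COX6C, COX7C and COX8A. These 18 genes had a median span of 7234 bases, against 12268 bases for the complex I accessory subunits. Of the 9 genes of complex III subunits, 4 had a peak with ddH2O and 2 (UQCRC1 and UQCRFS1) with lactate. In the Fo part and peripheral stalk of ATP synthase, which hold the proton channel and the arm that keeps the F1 head from turning, 6 of 13 genes had a peak with ddH2O and 3 with lactate.

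**Figure D1:**
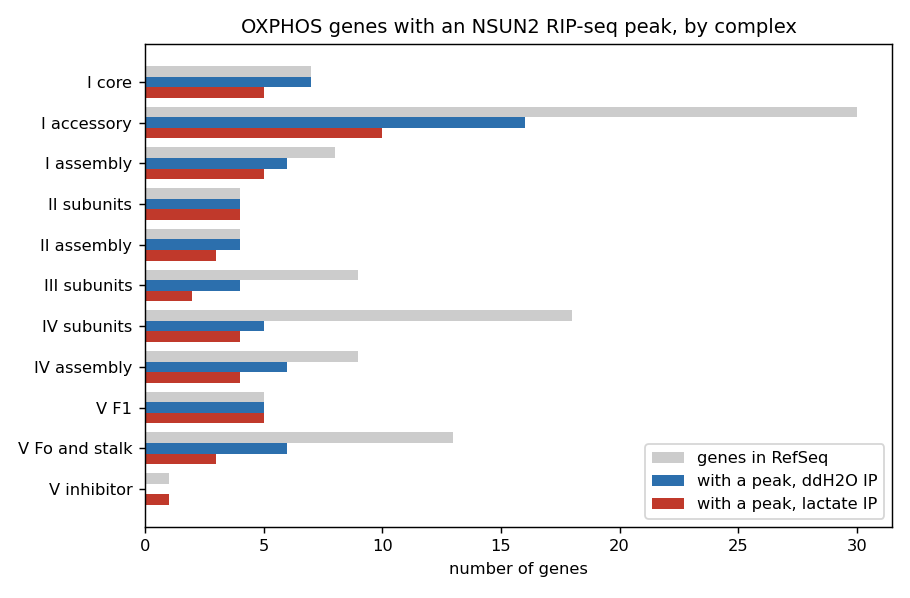
Number of OXPHOS genes (horizontal axis) in RefSeq (grey), with a peak in the ddH2O IP (blue) and with a peak in the lactate IP (red), for each group of genes (vertical axis). All 5 genes of the F1 part and all 4 of complex II had peaks in both libraries, while 5 of 18 complex IV subunits had one with ddH2O.

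In RefSeq (GRCh38.p14), 110 nuclear genes fall under the same rule, 1 of which, NDUFA4, was matched through an older symbol. A peak in either list was found for 61.8% of them, close to the 61.0% of all 20043 nuclear protein-coding genes. The 42 OXPHOS genes without a peak had a median span of 7260 bases, against 13976 bases for the 68 with one. Across all protein-coding genes the same order was seen, with medians of 10689 and 36827 bases. Among OXPHOS genes of up to 5000 bases, 8 of 23 (34.8%) had a peak, against 25% of protein-coding genes of that span. Between 5000 and 10000 bases the shares were 62.1% of 29 OXPHOS genes and 45.0% of the others. Above 50000 bases they were 80.0% of 10 genes and 78.9%. At each of the 5 span classes the share of OXPHOS genes was thus at or above that of protein-coding genes, although a share of 10 to 30 genes is known only coarsely.

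**Figure D2:**
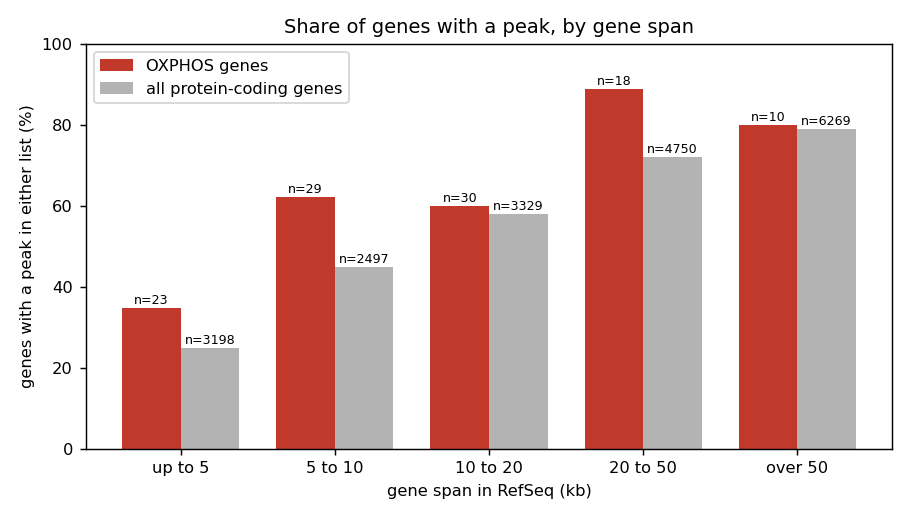
Percentage of genes with a peak in either list (vertical axis) by gene span in RefSeq in kb (horizontal axis), for OXPHOS genes (red) and all nuclear protein-coding genes (grey), with the number of genes in each class. The share was 34.8% for OXPHOS genes of up to 5 kb and 88.9% for those of 20 to 50 kb, against 25% and 72.0%.

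By the authors' annotation, introns held 62.5% of the OXPHOS peaks with lactate (70 of 112, 95% exact binomial interval 52.9 to 71.5%) and 47.7% with ddH2O (92 of 193, 40.4 to 55.0%). On all protein-coding genes the intron share was 61.5% with lactate and 61.2% with ddH2O. Exons held 22.3% (15.0 to 31.2%) of the OXPHOS peaks with lactate and 33.2% (26.6 to 40.3%) with ddH2O, against 18.8% and 21.0% on all protein-coding genes. The 3' UTRs held 13.4% (7.69 to 21.1%) with lactate and 17.1% (12.1 to 23.2%) with ddH2O, against 18.1% and 15.8%, and 5' UTRs held 2 and 4 peaks. In counts, 42 exon and UTR peaks with lactate stood beside 101 with ddH2O, and 70 intron peaks beside 92. The intervals reflect the number of peaks and no spread between libraries.

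The genes with the most peaks were long ones with intron peaks. NDUFAF2, an assembly factor of complex I, spans 207822 bases and had 16 lactate peaks and 15 ddH2O peaks, all but 1 of them in introns. NDUFS4, an accessory subunit of complex I, spans 122700 bases and had 6 and 11 peaks, of which 5 and 10 lay in introns. COX10, which makes the heme A precursor for complex IV, spans 139174 bases and had 9 and 8 peaks, of which 8 and 6 lay in introns. NDUFS1, the largest core subunit of complex I, had 9 ddH2O peaks, 5 in exons and 4 in the 3' UTR, and 4 lactate peaks, 3 in introns and 1 in the 3' UTR.

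The reads were concentrated on few mRNAs. Each gene is given here by its most-read window, as windows of neighbouring peaks overlap and share reads (124 of the 262 OXPHOS merged peaks lie beside another window that overlaps theirs). Summed over the 68 genes, these windows held 7065 lactate reads and 20218 ddH2O reads, which is 0.363% and 0.572% of the window sums given above. Those sums take every merged peak, overlapping windows included, while each gene here adds 1 window. The percentages are therefore not the share of all reads that lay on OXPHOS genes. The genes of ATP synthase supplied 51.3% of these lactate reads and 62.7% of these ddH2O reads. Of the 68 windows, 33 held at least 100 reads over both libraries, 50 held at least 20, and 18 held fewer than 20.

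The most-read gene was ATP5F1B (ENSG00000110955), the catalytic beta subunit of F1, with 1549 lactate reads and 4012 ddH2O reads over an exon peak on chromosome 12 from 56638938 to 56639400. ATP5F1E (ENSG00000124172), the small epsilon subunit of the central stalk, had 469 and 3638 reads over a 3' UTR peak on chromosome 20 from 59028588 to 59028988. ATP5ME, a membrane subunit of the Fo part, had 754 and 2728 reads on chromosome 4 from 673150 to 673505. These 3 genes held 39.2% of the lactate reads and 51.3% of the ddH2O reads of the 68 windows. Positions are on GRCh38 and counted from 1.

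After these came UQCRC1, a core subunit of complex III, with 464 lactate and 956 ddH2O reads. ATP5MC2, which encodes the c subunit of the Fo rotor, had 315 and 970. COX5B, a subunit of complex IV, had 355 and 825, and ATP5F1A, the alpha subunit of F1, had 230 and 680. By reads of both libraries, NDUFS5 led the complex I genes with 158 and 498, ahead of NDUFV1, the subunit that binds NADH, with 191 and 329, and NDUFS6 with 156 and 346. With lactate alone, NDUFV1 had the most of these 3 genes. COX4I1, the regulatory subunit of complex IV, had 174 and 398, and ATP5F1D, the delta subunit of F1, had 161 and 297. In each of these genes the ddH2O IP held more reads before any scaling. So it did in 55 of the 68 genes (80.9%), near the background of 82.1% of protein-coding genes.

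**Figure D3:**
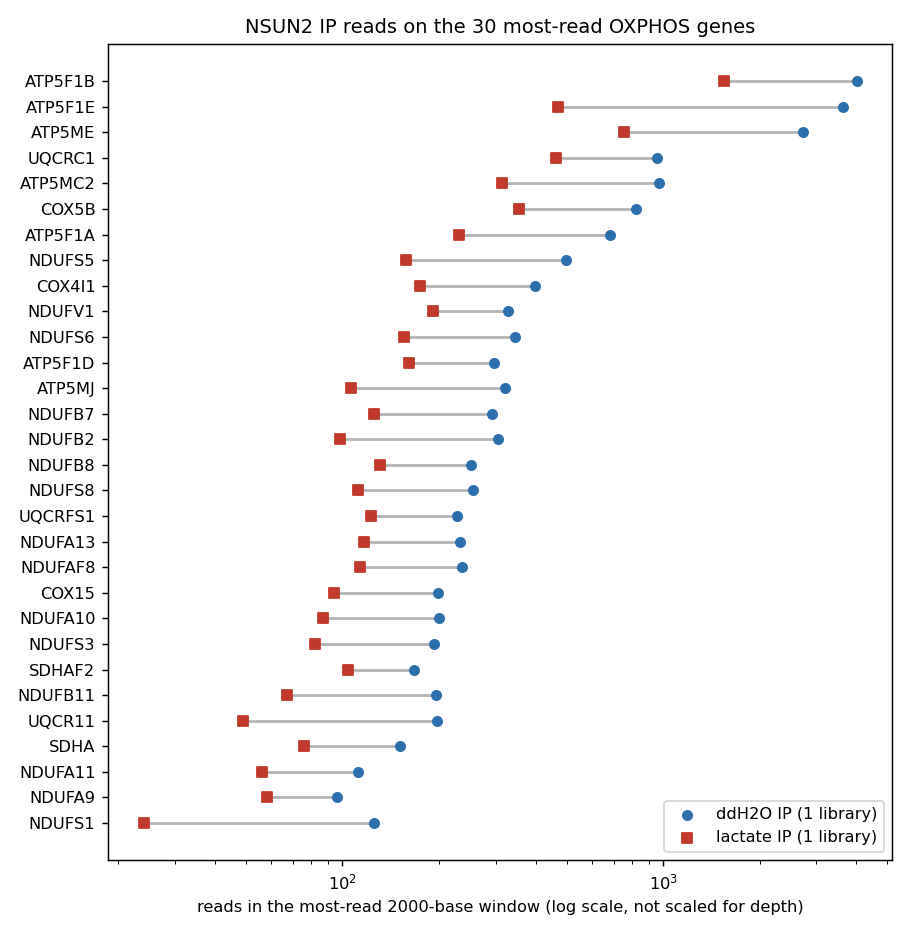
Reads in the most-read 2000-base window (horizontal axis, log scale, not scaled for depth) of the 30 OXPHOS genes with the most reads (vertical axis), 1 ddH2O IP library (blue circles) and 1 lactate IP library (red squares). The widest gaps are at ATP5F1E, with 469 lactate and 3638 ddH2O reads, and NDUFS1, with 24 and 125.

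OXPHOS genes with many IP reads had a lower median fold over input than other genes with many reads, with exceptions. Among the 33 OXPHOS genes with at least 100 reads in their most-read window, 32 had a ddH2O peak there, with a median fold enrichment of 2.08 and a range from 1.12 to 10.3. For the 4564 protein-coding genes with such a peak at that read number, the median fold was 4.28. A fold under 2 was found for 14 of the 32 OXPHOS genes (43.8%), against 12.2% of the protein-coding genes. With lactate, 15 of the 33 genes (45.5%) had a peak at that window, against 74.2% of protein-coding genes, and their median fold was 2.19, against 4.02. The lower fold was seen in both IP libraries. Listed peaks were selected for enrichment, and the depth of the input libraries is unknown.

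Examples of low folds in the ddH2O IP were NDUFB8 with 1.12 and ATP5MJ with 1.13. NDUFS5 followed with 1.17 and COX5B with 1.23. ATP5ME had no lactate peak although its window held 754 lactate reads, and its ddH2O fold was 1.71. ATP5F1E had a fold of 1.24 with lactate and 2.49 with ddH2O in its 3' UTR. Among the exceptions, ATP5F1B had folds of 2.04 with lactate and 4.36 with ddH2O at its most-read window, and UQCRC1 had 3.56 and 4.65.

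A few OXPHOS genes stood well above their input. NDUFV1 had an exon peak on chromosome 11 from 67611196 to 67612645 with a fold of 6.23 with lactate and 10.3 with ddH2O. NDUFA10, an accessory subunit of complex I, had an intron peak on chromosome 2 from 239966831 to 239967275 with the highest fold of the set in both lists, 10.5 and 11, over a window of 20 lactate and 22 ddH2O reads. COX19, an assembly factor of complex IV, had a 3' UTR peak with folds of 7.89 and 6.83, from 25 and 34 reads. In NDUFAF2 the highest folds lay at different intron peaks, 7.38 with lactate (3.64 with ddH2O there) and 9.1 with ddH2O (4.28 with lactate there). NDUFV3, an accessory subunit of complex I, reached 10.3 with ddH2O at an intron peak where its lactate fold was 3.76. Its highest lactate fold, 4.03, was at another intron peak, called with lactate only. Over all OXPHOS peaks the median fold was 3.24 with lactate and 2.81 with ddH2O, against 3.24 and 3.03 on protein-coding genes, and for exon and UTR peaks alone it was 2.85 and 2.57, against 3.64 and 3.49.

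To compare lactate with ddH2O, the log2 ratio of the authors' normalized densities was taken, which MAnorm centres on the peaks found in both lists. Its correction depends on the density, and added between 0.09 and 1.53 to the log2 ratio of the OXPHOS windows with at least 20 reads. A second ratio, from reads scaled by the window sums given above, adds 0.86 everywhere and is given beside many of the first. A ratio given alone is on normalized densities, and where 2 are given the first is. A window was called higher or lower past a 2-fold ratio with at least 20 reads over both libraries. Some of the ratios are given with 95% exact counting intervals, which do not cover differences between cultures. Both kinds of ratio compare the 2 IP libraries and hold no input reads. A change in the amount of an RNA and a change in its pull-down by NSUN2 cannot be told apart in them.

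On normalized densities the median log2 ratio of the 50 OXPHOS genes with at least 20 reads was -0.31, against -0.16 for 8970 protein-coding genes. With the window sums it was -0.32, against 0.00. Below 0 lay 39 of the 50 genes on normalized densities, against 60.1% of protein-coding genes, and 36 on window sums, against 50%. On normalized densities 8 of the 50 genes were lower past 2-fold, where the background was 12.7%, and 1 was higher, where it was 3.33%. On window sums 5 were lower, with a background of 6.0%, and 3 were higher, with one of 8.15%. The sign of the ratio depended on the scaling for 9 of the 50 genes, ATP5F1B and UQCRC1 among them.

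Among the 33 genes with at least 100 reads, 3 were lower past 2-fold and none was higher under both scalings. The background was 4.66% lower and 1.11% higher on normalized densities, and 2.71% lower and 1.93% higher on window sums. The median of these 33 genes was -0.29 on normalized densities and -0.33 on window sums, against -0.07 for protein-coding genes on both. The gap to other genes did not follow the reads evenly. In the 6 genes with at least 1000 reads, the median was -0.25 on normalized densities and -0.63 on window sums, against 0.22 and -0.17 for the 455 protein-coding genes of that class. In the 14 genes with 300 to under 1000 reads it was -0.20 and -0.30, against 0.00 and -0.10, and in the 13 with 100 to under 300 reads -0.37 and -0.33, against -0.17 and -0.02. In the 8 genes with 50 to under 100 reads it was -0.62 and -0.21, against -0.30 and 0.07, and in the 9 with 20 to under 50 reads -0.33 and 0.18, against -0.38 and 0.17.

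**Figure D4:**
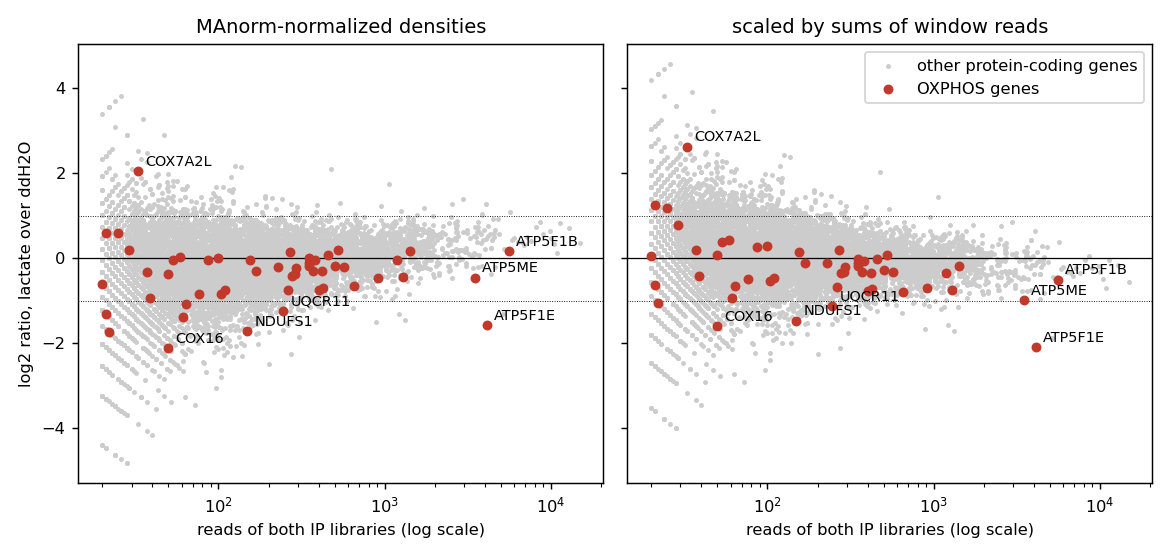
Log2 ratio of lactate over ddH2O (vertical axis) against the reads of both IP libraries in the most-read window (horizontal axis, log scale), for OXPHOS genes (red) and other protein-coding genes (grey) with at least 20 reads, on MAnorm-normalized densities (left) and on reads scaled by the sums of window reads (right). Dotted lines mark a 2-fold ratio, and ATP5F1E lies below it in both panels at -1.58 and -2.09.

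The 3 lower genes with at least 100 reads were ATP5F1E, UQCR11 and NDUFS1. For ATP5F1E the 469 lactate and 3638 ddH2O reads gave a log2 ratio of -1.58 (95% counting interval -1.72 to -1.44) on normalized densities and -2.09 on window sums. A second window of this gene, over an exon peak from 59030137 to 59030502, held 258 and 2567 reads and gave -2.05 and -2.45. Both lie in the span of the readthrough gene SLMO2-ATP5E, and the windows overlap. A processed pseudogene, ATP5F1EP2, had 27 and 111 reads and a ratio of -1.39, and the part of reads shared between this copy and its parent gene was not tested.

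For UQCR11, a small accessory subunit of complex III, 49 lactate and 197 ddH2O reads over a 3' UTR peak on chromosome 19 from 1597964 to 1598314 gave -1.24 (-1.74 to -0.80) and, on window sums, -1.12. An overlapping 3' UTR window of 33 and 161 reads gave -1.58 and -1.39. For NDUFS1, 24 and 125 reads over a 3' UTR peak on chromosome 2 from 206115584 to 206115826 gave -1.73 (-2.47 to -1.13) and -1.47. This NDUFS1 window lies in the span of the pseudogene GCSHP3, and a 3' UTR window further along the gene held 37 and 42 reads, with a ratio of 0.35 (-0.33 to 1.02). The lactate list held no peak at these UQCR11 and NDUFS1 windows.

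With fewer reads, 5 more genes were lower on normalized densities. COX16, an assembly factor of complex IV whose window lies in the readthrough gene SYNJ2BP-COX16, had 7 lactate and 43 ddH2O reads and a ratio of -2.12 (-3.68 to -1.11), and -1.60 on window sums. NDUFA8, an accessory subunit of complex I, had 13 and 48 reads and -1.39 (-2.47 to -0.56), and -0.94 on window sums. SDHAF1, an assembly factor of complex II, had 16 and 48 reads (-1.08, and -0.66 on window sums). UQCRC2 had 4 and 18 (-1.74 and -1.06) and SDHB 5 and 16 (-1.31, with an interval from -3.29 to 0.03, and -0.64), both over intron peaks, so NDUFA8, SDHAF1 and SDHB were past 2-fold under 1 scaling only. The single higher gene was COX7A2L, which helps respiratory supercomplexes form. It had 26 lactate and 7 ddH2O reads over an intron peak on chromosome 2 from 42355848 to 42356332, a ratio of 2.04 (0.93 to 3.62) and 2.62 on window sums. A pair of overlapping intron windows of COX7A2L went the other way, with 0 and 1 lactate reads and 9 ddH2O reads each, and the gene had 3 lactate and 7 ddH2O peaks.

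At the other end of the well-covered genes, NDUFV1 had a ratio of 0.19 (-0.08 to 0.45) on normalized densities and 0.08 on window sums. UQCRC1 had 0.17 (0.00 to 0.33) and, on window sums, -0.18 (-0.34 to -0.02). ATP5F1B, whose window also lies in the span of BAZ2A, had 0.16 (0.07 to 0.24) and, on window sums, -0.51 (-0.60 to -0.43). As the libraries do not mark strand, reads of overlapping genes cannot be told apart. SDHAF2, an assembly factor of complex II, had 104 lactate and 167 ddH2O reads and 0.14 (-0.23 to 0.50), and 0.18 on window sums. ATP5F1D had 0.06 (-0.23 to 0.34) and -0.02. None of these most-read windows passed a 2-fold ratio. Of the other ATP5F1B windows, 1 with 1500 lactate and 3755 ddH2O reads had 0.20 and -0.46. The other, over an exon peak with 146 and 558 reads, had -0.92 (-1.20 to -0.66) and -1.06.

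Between these ends lay most complex I and IV genes among those with at least 100 reads. NDUFB2 (98 lactate and 305 ddH2O reads) and NDUFB11 (67 and 196), both accessory subunits, had a ratio of -0.75 on normalized densities. The ratio was -0.70 for ATP5MJ (106 and 322), -0.65 for NDUFS5 and -0.48 for ATP5F1A. It was -0.46 for ATP5ME and -0.45 for ATP5MC2, which on window sums stood at -0.99 and -0.76. NDUFS3, a core subunit of complex I, had 82 and 193 reads and -0.42, and NDUFA10 had 87 and 200 and -0.37. Ratios between -0.31 and -0.20 were found for NDUFB7, NDUFS8, NDUFA11, COX15, SDHA and COX4I1. Ratios from -0.19 to 0.00 were found for NDUFS6, NDUFAF8, NDUFA13, COX5B, NDUFB8, NDUFA9 and UQCRFS1. On window sums NDUFA9 stood at 0.15 and COX5B at -0.35. Other, less-read windows of some of these genes were lower past 2-fold on normalized densities. They lay in NDUFS3 (12 and 67 reads, -1.93), NDUFS6 (2 and 24, -2.91), NDUFA13 (12 and 48, -1.50) and UQCRFS1 (5 and 20, -1.59). On window sums UQCRFS1 had -0.94 there. The higher windows, given below, lay in other genes.

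By complex, the 4 F1 genes with at least 20 reads ranged from -1.58 to 0.16 on normalized densities and from -2.09 to -0.02 on window sums, where all 4 lay below 0. The 3 genes of the Fo part and peripheral stalk ranged from -0.70 to -0.45 and from -0.99 to -0.73. The 15 accessory genes of complex I had a median of -0.31 and of -0.28 on window sums, with 13 and 11 of them below 0. The 6 core genes of complex I had medians of -0.38 and -0.34. The 4 complex III subunits had a median of -0.62 on both scales, with 3 and 4 of them below 0, and 2 of them, UQCR11 and UQCRC2, were the lower ones given above. The 5 complex IV subunits had a median of -0.05 and of 0.39 on window sums. Of these, COX4I1 and COX5B lay below 0 and COX7A2L and NDUFA4 above 0 on both scales, while COX5A, with 22 lactate and 31 ddH2O reads, stood at -0.05 and 0.39. The 3 subunits of complex II with enough reads had a median of -0.21 and of -0.12. Its 3 assembly factors had medians of 0.14 and 0.18, and 1 of them, SDHAF1, lay below 0. The assembly factors of complex I (3 genes) had medians of -0.61 and -0.19, and those of complex IV (4 genes) had -0.49 and -0.33.

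Over all 262 OXPHOS merged peaks, 42 had been called in both lists, 151 with ddH2O alone and 69 with lactate alone. Of the 107 with at least 20 reads, 20 were lower on normalized densities (background 18.3%) and 8 were higher (7.3%). On window sums 13 were lower (8.57%) and 13 higher (16.4%). Of the 46 with at least 100 reads, 5 were lower on normalized densities (6.57%) and 6 on window sums (3.94%), while none was higher (1.56% and 2.76%). The 5 lower ones were the windows of ATP5F1E (2), UQCR11 (2) and NDUFS1 (1) given above, and the sixth on window sums was another window of ATP5F1B, with 146 and 558 reads.

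Among windows with at least 20 reads, those of exons and UTRs had a lower median ratio than those of introns, and so they had on all protein-coding genes. With no read minimum the OXPHOS medians on normalized densities were -0.48 and -0.10, while those of protein-coding genes were -0.44 and -0.47, in the other order. On window sums with no read minimum the order was the same in both sets. There the medians were -0.33 and 0.73 for OXPHOS genes, and -0.06 and 0.28 for protein-coding genes. Of 75 OXPHOS exon and UTR windows with at least 20 reads, 17 were lower on normalized densities (background 19.3%) and none was higher (2.27%), with a median of -0.44, against -0.31 for protein-coding genes. Of 32 OXPHOS intron windows, 3 were lower (17.3%) and 8 higher (13.0%), with a median of -0.10, against -0.03. On window sums 11 exon and UTR windows were lower (9.37%) and 2 higher (6.82%), with a median of -0.35, against -0.08. On the same scale 2 intron windows were lower (7.65%) and 11 higher (27.3%), with a median of 0.38, against 0.45. The exon windows were also the deeper ones, with a median of 156 reads against 28 in introns, and exon and intron windows came in part from different genes. The 8 higher intron windows lay in NDUFAF2 (4), COX7A2L, NDUFS1, NDUFV1 and NDUFV3. The strongest, on chromosome 5 from 61064190 to 61064915 in NDUFAF2, had 21 lactate reads and 1 ddH2O read.

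**Figure D5:**
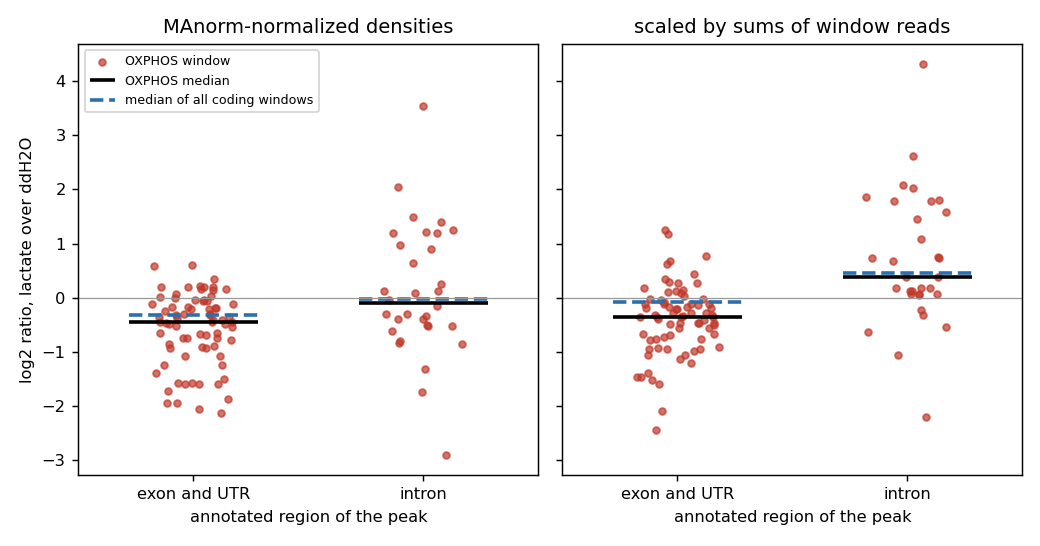
Log2 ratio of lactate over ddH2O (vertical axis) of OXPHOS windows with at least 20 reads (red points, 75 for exon and UTR peaks and 32 for intron peaks), on MAnorm-normalized densities (left) and on reads scaled by the sums of window reads (right). Black lines are the OXPHOS medians, -0.44 and -0.10 on the left, and dashed blue lines the medians of all protein-coding windows.

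Of the genes listed with lactate alone, ATP5IF1, the inhibitor of ATP synthase hydrolysis, had 13 lactate and 0 ddH2O reads over an intron peak, and COX20, an assembly factor of complex IV, had 14 and 1. NDUFA4, a complex IV subunit despite its symbol, had 12 and 9 reads over an exon peak, and a processed pseudogene of it, NDUFA4P1, had 22 and 19. In all, 16 pseudogenes with an OXPHOS symbol had a peak in either list, 4 with lactate and 14 with ddH2O. After ATP5F1EP2 and NDUFA4P1, the most reads lay on NDUFB1P1, with 2 and 30, while NDUFB1 itself had no peak.

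Genes of the same pathway outside the rule were also examined. None of the 13 subunits encoded in mitochondrial DNA had a listed peak. Of 41 other nuclear genes, which hold cytochrome c, cytochrome c1 and assembly or expression factors of the complexes, 33 had a peak, against 61.0% of nuclear protein-coding genes. Their median span was 9528 bases, and their share was not compared by span class. Of the 30 with at least 20 reads, 7 were lower past 2-fold on normalized densities (background 12.7%) and 0 were higher (3.33%), with a median of -0.38, against -0.16 for protein-coding genes. On window sums 1 was lower (6.0%), which was ACAD9, and 1 higher (8.15%), which was CMC1, with a median of -0.15, against 0.00. CYCS, cytochrome c, had 120 lactate and 197 ddH2O reads and a ratio of 0.14, and 0.15 on window sums. CYC1, cytochrome c1 of complex III, had 67 and 165 reads and -0.52, and -0.42 on window sums. ACAD9, an assembly factor of complex I, had 16 and 122 reads and -2.30, and -1.99 on window sums. SURF1, an assembly factor of complex IV, had 391 and 863 reads and 0.04, but -0.28 on window sums, so its sign depended on the scaling.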

How the data were processed

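NSUN2 RIP-seq of PANC-1 cells was analysed from 4 libraries, grouped by their labels. The submitters' processing notes name fastp 0.20.1, HISAT2 2.1.0, MACS2 2.2.7.1, bedtools 2.29.2, HOMER 4.11.1 and DiffBind with GRCh38, without roles, while the paper's methods name MAnorm for the comparison. The labels name the SMART-Seq v4 kit, which does not mark strand. The authors deposited a peak list per IP library, with the fold (ratio of IP over input), p-values and q-values, and annotation of each peak. They also deposited a table of merged peaks with the MAnorm-normalized read density (signal) of each IP library. Its M, A and P columns hold the authors' own comparison and were not used.

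Window reads were recovered from these densities, taken as reads plus 1 per kb of a 2000-base window moved along a line in mean log2 density (slope 0.17, intercept -0.20). For 99.998% of 116484 windows the product of the rescaled densities lay within 0.5 of the product of the whole numbers taken (reads plus 1). The recovery was tested on simulated data. The depth of the input libraries is unknown, and the depth behind each value is given as reads. A merged peak took the gene of each called peak that shared at least 1 base, and the region with the most shared bases. Window sums left out MT-RNR2 and MALAT1, and 1 read was added to each window. Calls needed a fold over 2 and 20 reads. Intervals are exact (Clopper-Pearson, 95%) and cover counting error only, as reads without molecular identifiers are not independent molecules. The members and lists were chosen with earlier results of these data known. Named genes were the 30 with the most reads, the 5 with the largest and the 5 with the smallest log2 ratio at 50 or more reads, the 3 with the highest fold in each list and the 3 with the most peaks. Other members were named, after their values were seen, where a count of few genes called for it. The alternatives were window sums, read minimums of 0 and 100, a fold over 4, an overlap of 50%, exon and UTR peaks, a q-value below 0.05, a fold enrichment of at least 4 and bases covered. Gene spans came from RefSeq (GRCh38.p14). No genome sequence was used here. The work was done in Python 3.11.15 (pandas 2.3.3, numpy 2.4.6, scipy 1.17.1) and figures were drawn with matplotlib 3.10.9.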

Additional observations from a re-analysis of the deposited data

How the results depend on the processing

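No paired analysis was possible because each treatment has 1 IP library, and for the same reason no replicate could be left out. The count of lower OXPHOS merged peaks (20) was 13 on window sums, 88 with no read minimum, 5 at 100 reads and 3 at a fold over 4. The count of higher ones (8) was 13, 47, 0 and 2 under the same settings, and 0 for exon and UTR peaks only. An overlap of 50% left both counts as they were. By most-read window, the lower genes (8) were 5 on window sums, 14 with no read minimum and 3 at 100 reads. The higher genes (1) were 3, 7 and 0, and 0 for exon or UTR windows. The median log2 ratio (-0.31) was -0.32 on window sums, -0.29 at 100 reads, -0.27 with no read minimum or for exon or UTR windows, and -0.29 without genes whose window overlaps another gene, a setting chosen after seeing the data. It was below 0 under each of these settings. The median of protein-coding genes was also below 0 on normalized densities, at -0.16, and at -0.07 with 100 reads. On window sums the protein-coding median was 0.00, and -0.07 with 100 reads. A q-value below 0.05 left 37 lactate and 91 ddH2O peaks, with median folds of 4.28 and 4.14, and a fold of at least 4 left 24 and 46. Exon and UTR peaks alone had median folds of 2.85 and 2.57. At a fold of at least 4 the lactate shares were 12.5% exon, 4.17% 3' UTR and 83.3% intron. At a q-value below 0.05 the ddH2O shares were 27.5% 3' UTR and 35.2% intron. The other exon, 3' UTR and intron shares, those by bases covered included, stayed within the counting interval of the share over all peaks. The 5' UTR share with lactate, 2 of 112 peaks, was 0 of 37 at a q-value below 0.05 and 0 of 24 at a fold of at least 4. The stricter settings leave fewer peaks by their own construction, and the cause of the other differences was not tested. Calls below 100 reads rest on few reads.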
